A study of Mus musculus with 9 samples.

Results

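The genes described here encode core proteins of the spliceosome and subunits of the Integrator complex. They were chosen by symbol alone, as every gene whose name begins with Snrp, Sf3a, Sf3b, Prpf, Srsf or U2af, or with Lsm or Ints followed by a digit. That pattern matched 72 genes, and leaving out Snrpn gave 71 of the 20087 named genes in the table. Polyadenylated RNA was sequenced from B6D2F1 mouse embryos at E2.75, around the morula stage, in pools of 60 embryos per library with 3 libraries per group. Every zygote had received an injection of small interfering RNA (siRNA), which lowers messenger RNA of matching sequence. The control group NC received a nonspecific siRNA and is labelled wild type. The group Hdac1/2 cKD, labelled a co-knockdown, received siRNA targeting Hdac1 and Hdac2, which encode class I histone deacetylases. The group Sin3a KD received siRNA targeting Sin3a, whose protein is the platform of a repressor complex to which both enzymes bind. A knockdown of this kind acts in the whole embryo and leaves part of the targeted RNA. By its title the study asks how far the roles of the deacetylases overlap in preimplantation embryos.

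The spliceosome removes introns from pre-messenger RNA. Its small nuclear ribonucleoproteins (snRNPs) are built around small nuclear RNAs, most of which carry a ring of Sm proteins, while U6 RNA carries a ring of LSm proteins. U1 recognises the start of an intron, U2AF and U2 with its SF3a and SF3b subcomplexes recognise the branch region and the end of the intron, the Prpf proteins act at several steps (beside U1, in the U4/U6.U5 assembly, in the Prp19 complex or in the step that joins exons), and SR proteins bind exons and help to recruit these parts. Integrator binds RNA polymerase II, cuts the ends of newly made small nuclear RNAs and ends transcription early at many protein-coding genes. Early embryos depend on intron removal once their own genome is transcribed.

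By role, the 71 genes comprised 7 of the Sm ring, 4 other U1 and U2 proteins, 7 of the LSm ring of U6, 6 other LSm genes, 9 of SF3a and SF3b, 3 U2AF genes, 13 Prpf genes, 11 SR protein genes and 11 Integrator genes (Ints1 to Ints10 and Ints12). Integrator genes below are these 11, so subunits listed under other symbols are not among them. All 71 matched 1 gene each in the GENCODE vM21 annotation (GRCm38), on 17 chromosomes. A copy at least 95% identical over at least 200 bases existed for 19 of them, and for 10 of these a copy was listed in the table. In addition, 8 genes shared more than 10% of their exon length with another gene, most strongly Snrpf at 85.4% and U2af1l4 at 66.1%. The division of reads is uncertain for such genes, because the counting is not stated to use strand.

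Promoter sequences from RefSeq (GRCm38.p6, 250 bases before to 50 bases after the start) matched 57 of the 71 genes. The first pair below belongs to the Sm ring gene Snrpd3 and the Integrator gene Ints7, the genes with the lowest values in Sin3a KD relative to NC. The second pair belongs to the U2 gene Sf3a2 and the U1 gene Snrpc, which were called in Hdac1/2 cKD and hold the letters CCGGAAG, a core recognised by ETS factors, shown in capitals. All are written 5' to 3' on the forward strand, which is the strand of each gene. The intervals are chr10:75517792-75518091 for Snrpd3, chr1:191575386-191575685 for Ints7, chr10:80798485-80798784 for Sf3a2 and chr17:27839837-27840136 for Snrpc.
Snrpd3: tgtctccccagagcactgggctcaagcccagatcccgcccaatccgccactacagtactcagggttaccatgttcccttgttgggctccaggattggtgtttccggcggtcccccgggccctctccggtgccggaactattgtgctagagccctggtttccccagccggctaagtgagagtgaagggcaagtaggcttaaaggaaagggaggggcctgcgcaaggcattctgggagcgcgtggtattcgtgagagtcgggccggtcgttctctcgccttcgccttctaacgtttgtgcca
Ints7: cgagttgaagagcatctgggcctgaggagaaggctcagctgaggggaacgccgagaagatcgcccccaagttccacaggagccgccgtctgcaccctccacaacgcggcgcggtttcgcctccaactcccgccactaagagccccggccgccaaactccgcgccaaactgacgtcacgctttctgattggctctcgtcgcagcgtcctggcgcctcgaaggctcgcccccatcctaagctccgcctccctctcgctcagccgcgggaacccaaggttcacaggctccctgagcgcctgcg
Sf3a2: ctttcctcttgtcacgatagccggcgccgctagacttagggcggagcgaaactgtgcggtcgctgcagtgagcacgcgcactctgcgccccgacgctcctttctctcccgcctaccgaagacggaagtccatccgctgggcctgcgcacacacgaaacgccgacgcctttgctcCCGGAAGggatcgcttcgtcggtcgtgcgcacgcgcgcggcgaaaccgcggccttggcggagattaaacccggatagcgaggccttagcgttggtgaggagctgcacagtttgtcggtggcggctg
Snrpc: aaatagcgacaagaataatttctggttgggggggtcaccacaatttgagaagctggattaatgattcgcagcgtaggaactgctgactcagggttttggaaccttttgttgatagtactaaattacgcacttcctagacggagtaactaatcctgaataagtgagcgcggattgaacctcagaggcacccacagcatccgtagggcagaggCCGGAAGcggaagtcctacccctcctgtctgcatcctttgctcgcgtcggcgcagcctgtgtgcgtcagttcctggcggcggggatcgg

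The letters CCGGAAG, searched on both strands, occurred in 21 of the 57 promoters (36.8%), against 8.86% of all 32817 promoters and 16.9% of the 12338 promoters of tested genes. They were found in 6 of 7 SF3a and SF3b promoters, 4 of 11 Prpf, 4 of 11 SR protein, 2 of 5 Sm ring, 2 of 4 other U1 and U2, 2 of 7 Integrator and 1 of 6 promoters of the LSm ring of U6. None of the 2 U2AF or 4 other LSm promoters held them. Of the 13 genes called in any comparison that have a promoter in the table, 4 held the letters, and of the 44 others 17 did. The match began 76 bases before the start in Sf3a2 and 39 bases before it in Snrpc. TATAAA occurred in 3 promoters (5.26%, against 13.6% of all and 7.02% of tested), those of Sf3b3, Srsf2 and Srsf3. The E-box CACGTG occurred in 4 (7.02%, against 7.15% and 9.82%), those of Prpf3, Prpf39, Prpf40b and Snrpa, and the NRF1 palindrome in 1 (1.75%, against 0.966% and 2.0%), that of Ints2. None of the 4 motifs contains another, all were searched on both strands, and Snrpd3 and Ints7 held none of the 4. Median GC content was 60.0% over the 57 promoters and 52.7% over all, so a match to letters rich in G and C is not set against equal base composition. Each of the 57 genes was given 1 promoter, the listed one nearest its main annotated start. Both backgrounds keep every listed promoter, so the shares are not set against promoters chosen alike.

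Values are normalised counts, that is gene read counts divided by the authors' DESeq2 factors, and their totals per library lay between 11.92 M and 13.48 M. A gene was tested where it reached 10 in at least 3 of the 9 libraries, which 13343 genes did, all 71 described here among them. Srsf12 passed only through Hdac1/2 cKD, where it is highest. Changes are log2 differences of value + 1 from limma, with the standard error (SE), and a gene was called at a Benjamini-Hochberg adjusted p below 0.05 over all tested genes. In the libraries labelled for them, Hdac1 stood at 1052.0, 1006.5 and 769.6 (NC 6245, 4925 and 5536), Hdac2 at 193.3, 350.3 and 371.1 (NC 2347, 2020.3 and 2492) and Sin3a at 354.4, 520.1 and 417.8 (NC 1779, 1215 and 1459). Hdac1 in Sin3a KD was 1333, 2597 and 1802. Morula markers were present in every library (10 of 10 listed), and their sum ranged from 47246 to 52954 in NC, from 43111 to 47384 in Sin3a KD and from 33969 to 36432 in Hdac1/2 cKD. The sum hides single markers. In Sin3a KD Krt8 was 391.2 to 566.1 (NC 1094.7 to 2098.5), while Pou5f1, the largest, was 19180 to 20929.6 (NC 19065.1 to 19476.9). In Hdac1/2 cKD Cdx2 was 155.4 to 205.4 (NC 955 to 1460.7), while Krt18 was 646.8 to 718.9 (NC 498.8 to 703.4). The 7 oocyte genes summed to 220.4 to 340.1. The 3 blood genes listed in the table summed to 122.7 to 145.2 in Hdac1/2 cKD, above NC (52.9 to 86.6) and Sin3a KD (43.5 to 63.6), mostly from Cd68, with Ptprc at 0 to 13 and Hba-a1 at 0 to 30.3. The 4 fibroblast genes summed to 0 to 34.8, with Dcn and Col3a1 at 0 outside 1 library, and the 4 cumulus genes to 277.7 to 436.4, mostly from Amhr2, with Cyp19a1 at 0 in 7 libraries. The part of these genes in the results was not tested. NC replicate 3 stood apart, with 28.4% of genes at 0 and 96.6 on the first principal component (other NC libraries 16.8 and 20.7). Without it, 6, 3 and 12 of the 71 genes were called in the 3 comparisons below.

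The spliceosome and Integrator genes were steadily expressed. Their summed value made up 1.05% to 1.14% of each library, and the median of their mean values was 1083 against 228 over all tested genes. In NC their median coefficient of variation was 12.9%, against 21.8% for all tested genes, which have lower values. Levels between genes were compared per kilobase of exon, in NC. SR protein genes were highest by role, with a median of 929.6 normalised counts per kilobase, followed by the Sm ring (685.8), other U1 and U2 proteins (542.3), U2AF (493.6), SF3a and SF3b (431.2), the LSm ring of U6 (295.3), Prpf (160.2), Integrator (116.8) and the other LSm genes (103). Srsf2, an SR protein, had the highest level per kilobase at 3409 ± 224 (SD, n = 3), above Lsm12 at 1920 ± 63.3, and the spreads of these neighbours did not meet. The division of reads is uncertain for both. Srsf2 shares 25.3% of its exon length with Mettl23 and Mfsd11 on the other strand, and Lsm12 has a listed close copy, Gm9727. Srsf9 (1642 ± 116), Snrpb (1483 ± 187), which encodes Sm B, and Srsf1 (1370 ± 204) followed, and the ranges of mean ± SD of neighbours among these 3 overlapped. The lowest were Srsf12 at 1.22 ± 0.913 and Prpf40b at 13.0 ± 4.01.

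**Figure D1:**
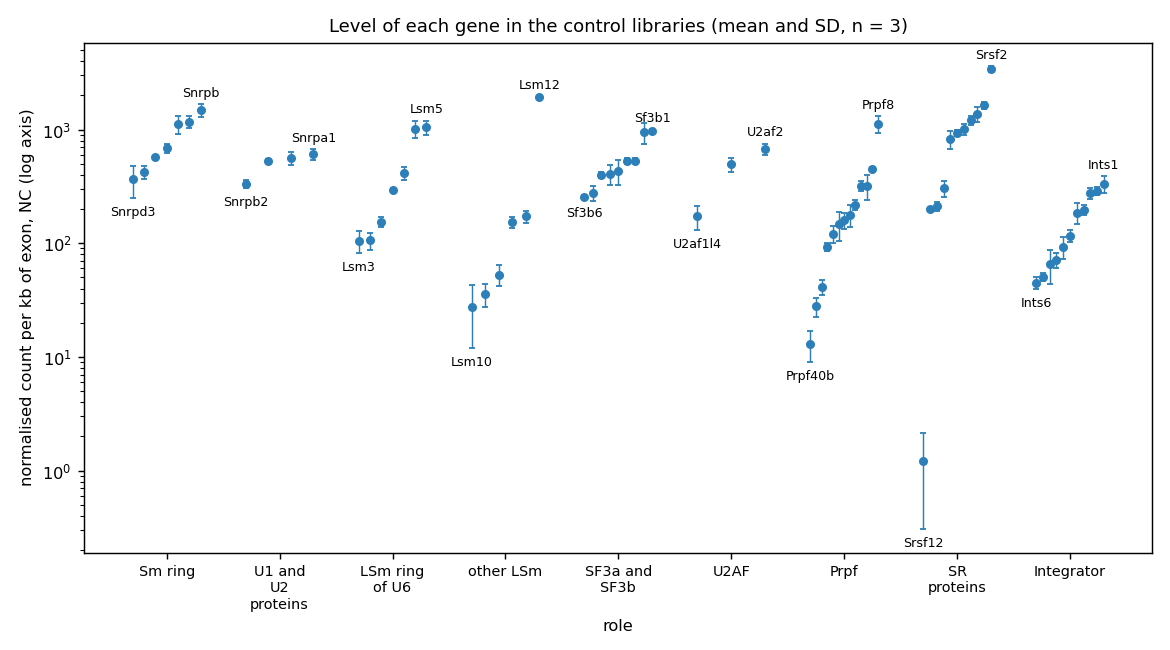
Levels of the 71 genes in the 3 control libraries, as mean normalised counts per kilobase of exon on a log axis, grouped by role. SR protein genes have the highest median (929.6) and also the widest range, from Srsf12 at 1.22 to Srsf2 at 3409, while the 11 Integrator genes lie between 44.8 and 335.4.

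The called share of these genes was below that of all tested genes in both comparisons with NC and nearer to it in the direct one. The comparison of Hdac1/2 cKD with NC asks what follows the lowering of both deacetylases, and in it 6 of 71 were called (8.45%), against 15.6% of all tested genes. Of these, 3 rose (background 7.81%) and 3 fell (background 7.8%). In Sin3a KD against NC 3 were called (4.23%, background 7.96%), 1 higher (background 3.6%) and 2 lower (background 4.36%). In the direct comparison of Hdac1/2 cKD with Sin3a KD 10 were called (14.1%, background 17.3%), 6 higher in Hdac1/2 cKD (background 8.49%) and 4 lower (background 8.78%). The first 2 comparisons share the NC libraries, so their values are not independent. At an unadjusted p below 0.05 the counts were 17, 16 and 24 of 71 (23.9%, 22.5% and 33.8%), against 29.6%, 23.9% and 30.3% of all tested genes, so by that rule the shares were near the background. With libraries scaled to equal totals the calls of the 71 were 7 higher and 0 lower in Hdac1/2 cKD, where 10.4% of all tested genes were higher and 5.05% lower. In Sin3a KD they were 3 higher and 2 lower (background 5.55% and 3.18%), and in the direct comparison 8 higher and 4 lower (background 9.15% and 8.3%).

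Most sizes were small. The median log2 change of the 71 genes was -0.02, -0.03 and 0.02 in the 3 comparisons, with 0.03, 0.03 and 0.01 over all tested genes. The median absolute change was 0.17, 0.16 and 0.20 for the 71 and 0.37, 0.33 and 0.38 for all. An absolute log2 change of 0.5 or more was seen for 6, 3 and 9 of the 71 genes (8.45%, 4.23% and 12.7%), against 38.8%, 34% and 39.1% of all tested genes, most of which have lower values and wider spread. Lack of overlap between groups was common. Of all 13343 tested genes, the first group lay wholly above the second for 2279, 1851 and 2722 and wholly below for 2131, 1768 and 2579. Of the 71 genes, 10, 6 and 20 lay wholly above and 12, 9 and 14 wholly below. Within whole embryos, fewer cells of a type and less RNA per cell cannot be told apart, and total RNA per embryo is not seen in normalised counts.

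**Figure D2:**
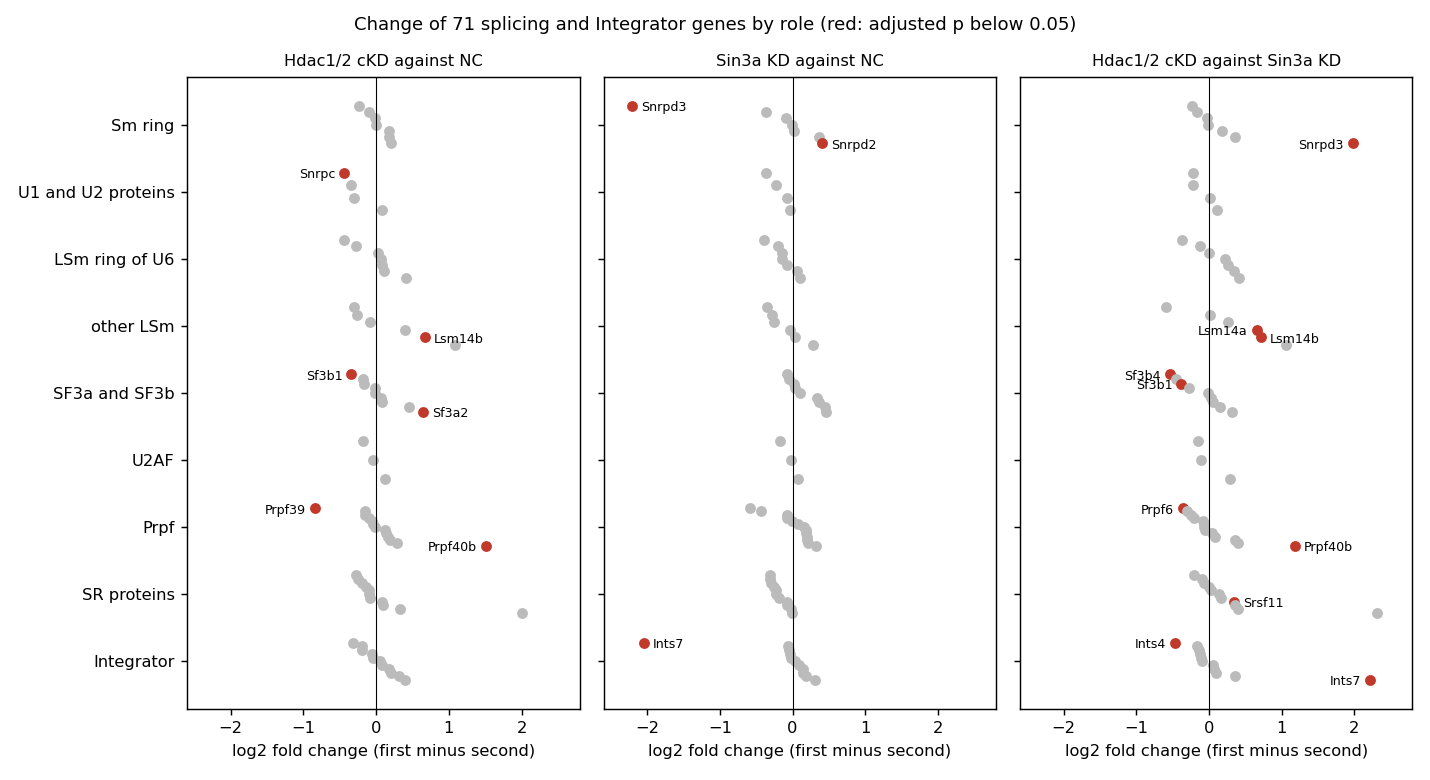
Log2 changes of the 71 genes by role in the 3 comparisons, 1 point per gene, with genes called at an adjusted p below 0.05 in red. Most points lie near 0, and Snrpd3 (-2.21) and Ints7 (-2.05) stand far below the rest in Sin3a KD against NC. The gray SR protein point at 2.01 in the first panel is Srsf12, which has low values and was not called.

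The Sm ring held the largest change against NC. Snrpd3 (chromosome 10, 75517551 to 75537381, forward strand) encodes Sm D3, a member of the ring that snRNPs other than U6 carry. Its normalised counts were 1214, 890.1 and 1675 in NC, 1006, 1159 and 957 in Hdac1/2 cKD, and 188.6, 412.2 and 232.7 in Sin3a KD. All 3 Sin3a KD libraries lay below every other library, while Hdac1/2 cKD and NC overlapped. The Sin3a KD mean of 277.8 ± 118 (SD, n = 3) was 22.1% of the NC mean of 1259 ± 394 (log2 -2.21, SE 0.28, adjusted p = 0.00261), and Snrpd3 was higher in Hdac1/2 cKD than in Sin3a KD (log2 1.98, SE 0.28, adjusted p = 0.000634). Against NC, Hdac1/2 cKD did not pass (log2 -0.23, adjusted p = 0.624). Both calls held when any of the 9 libraries was left out. Within lane 3 alone the Sin3a KD difference from NC was -2.43 on the log2 scale. There 2 Sin3a KD libraries were set against 1 NC library, replicate 3, which has the highest Snrpd3 of NC. The call against NC was lost only with limma's trend and robust options off (adjusted p = 0.0523). The siRNA sequences were not compared with any transcript, Snrpd3 and Ints7 included.

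No other Sm ring gene was called lower in Sin3a KD. Snrpd2, which encodes Sm D2, was 1644, 1759 and 1983 in NC and 2531, 2228 and 2368 in Sin3a KD, with Hdac1/2 cKD at 1892, 1963 and 2216. Every Sin3a KD library lay above every NC library, and the gene rose from 1795 ± 172 to 2376 ± 152 (SD, n = 3, log2 0.41, SE 0.11, adjusted p = 0.0384). This call was close to the threshold. It was lost when NC replicate 1 (0.111) or 2 (0.0565), Hdac1/2 cKD replicate 1 (0.0522) or 2 (0.0621), or Sin3a KD replicate 1 (0.151) or 3 (0.113) was left out, and with lane as a factor (0.421). Snrpd1, Sm D1, was 1168 ± 34.6 in NC and 907 ± 56.8 in Sin3a KD (log2 -0.37, adjusted p = 0.0812). All its Sin3a KD libraries lay below every other library. Snrpb was 2930.4 ± 369 and 3785 ± 458 (log2 0.37, adjusted p = 0.0709), with every Sin3a KD library above every NC library. Neither gene passed. Snrpe, Snrpf and Snrpg had log2 changes between -0.10 and 0.18 in both knockdowns against NC. In Hdac1/2 cKD no Sm ring gene passed, the lowest adjusted p being that of Snrpb (log2 0.21, adjusted p = 0.266).

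Set against its partners, Snrpd3 stood at 90.4% ± 22.9 (SD, n = 3) of the median of the other 6 Sm ring genes in NC, 78.3% ± 6.07 in Hdac1/2 cKD and 22.4% ± 8.38 in Sin3a KD. The summed value of the ring was 10371 ± 665 in NC and 10458 ± 678 in Sin3a KD (SD, n = 3).

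Integrator held the second such gene. Ints7 (chromosome 1, 191575636 to 191623688, forward strand) encodes a structural subunit of the complex and had no overlapping exon or close copy. Its values were 1680.3, 1151 and 1260 in NC, 1435, 1749 and 1388 in Hdac1/2 cKD, and 208.4, 595.9 and 275.8 in Sin3a KD. Again the 3 Sin3a KD libraries were the lowest of the 9 and the others overlapped. The Sin3a KD mean of 360.04 ± 207 (SD, n = 3) was 26.4% of the NC mean of 1364 ± 279 (log2 -2.05, SE 0.33, adjusted p = 0.0078), and Hdac1/2 cKD exceeded Sin3a KD (log2 2.22, SE 0.33, adjusted p = 0.00166). Both calls held when any library was left out. The call against NC was lost with lane as a factor (adjusted p = 0.0927), with limma's options off (0.0523) and when NC replicate 1 and Sin3a KD replicate 1, each the sole library of its lane, were both left out (0.0647). Within lane 3 the log2 difference from NC replicate 3, the only NC library there, was -1.63.

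Replicate 1 was lowest, replicate 3 next and replicate 2 highest of the Sin3a KD libraries for Snrpd3, Ints7, Sin3a and Hdac1, genes picked for this after their values were seen. The same order held for 7 of the 71 genes (9.86%) and for 14.2% of all tested genes. Ints7 stood at 157.9% ± 31.9 (SD, n = 3) of the median of the other 10 Integrator genes in NC, 172.2% ± 27.7 in Hdac1/2 cKD and 39.5% ± 22.2 in Sin3a KD.

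**Figure D3:**
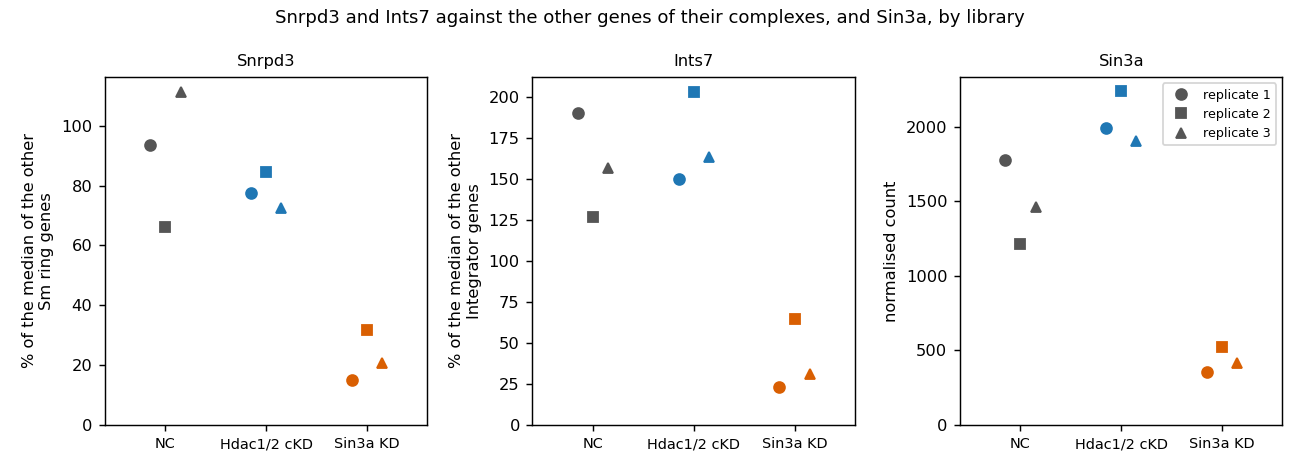
Snrpd3 as a percentage of the median of the other 6 Sm ring genes, Ints7 as a percentage of the median of the other 10 Integrator genes, and Sin3a in normalised counts, in each of the 9 libraries. The 3 Sin3a KD libraries are lowest in every panel, between 15.1% and 31.6% for Snrpd3 and between 22.9% and 64.7% for Ints7.

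Among the other Integrator genes 1 call was made. Ints4, a subunit of the module that cuts RNA, was 1072, 1161 and 1089 in Hdac1/2 cKD and 1537, 1444 and 1607 in Sin3a KD, with NC at 1541, 1357 and 1262. Every Hdac1/2 cKD library lay below every other library. Ints4 was lower in Hdac1/2 cKD than in Sin3a KD (log2 -0.47, SE 0.11, adjusted p = 0.0123), a call lost without Hdac1/2 cKD replicate 1 (0.0501) or Sin3a KD replicate 3 (0.051) and with lane as a factor (0.0689). Against NC it had the lowest adjusted p of the Integrator genes in Hdac1/2 cKD, which were all uncalled (log2 -0.32, adjusted p = 0.0742). The remaining 9 Integrator genes passed in no comparison, with log2 changes against NC from -0.20 (Ints3) to 0.40 (Ints10) in Hdac1/2 cKD and from -0.06 (Ints3) to 0.31 (Ints10) in Sin3a KD.

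In SF3a and SF3b, the U2 subcomplexes that hold the branch region, both directions were seen in Hdac1/2 cKD. Sf3b1, the large scaffold protein that clamps the branch helix, was 11195, 11407 and 10589.5 in NC, 9243, 8616 and 8372 in Hdac1/2 cKD and 11527, 12102.5 and 10501 in Sin3a KD. The 3 Hdac1/2 cKD libraries were the lowest of the 9. Sf3b1 fell to 79.03% of NC (8743 ± 449 against 11064 ± 424, SD, n = 3, log2 -0.34, SE 0.08, adjusted p = 0.0153) and was lower than in Sin3a KD (log2 -0.38, SE 0.08, adjusted p = 0.00757). The call against NC was lost with libraries scaled to equal totals (0.0593) and without Hdac1/2 cKD replicate 2 (0.064) or 3 (0.0718). The call against Sin3a KD held when any library was left out and was lost only with limma's options off (0.0648).

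Sf3a2, the SF3a subunit that contacts U2 RNA, moved the other way. It was 1414, 1159 and 865.5 in NC, 1587, 1915 and 1809.9 in Hdac1/2 cKD and 1354, 1278 and 1634 in Sin3a KD. Every Hdac1/2 cKD library lay above every NC library, and Sf3a2 rose from 1146 ± 275 to 1771 ± 167 (SD, n = 3, log2 0.65, SE 0.17, adjusted p = 0.0171). The call was lost without Hdac1/2 cKD replicate 2 (0.0713) or 3 (0.0604), and 16.1% of its exon length overlaps Plekhj1 on the other strand. Sf3b4, an SF3b protein, was 1667, 1734 and 1971 in Hdac1/2 cKD and 2800, 2350.2 and 2644 in Sin3a KD, with NC at 2254, 2333 and 1551. It was lower in Hdac1/2 cKD than in Sin3a KD, with no overlap (log2 -0.54, SE 0.15, adjusted p = 0.0226). That call was lost without Hdac1/2 cKD replicate 1 (0.0873) or 2 (0.0754), without Sin3a KD replicate 1 (0.0935) or 3 (0.0704), and with lane as a factor (0.119). A close copy, Gm7935, is listed in the table. In Sin3a KD against NC none of the 9 passed, the lowest adjusted p being that of Sf3b5 (1062 ± 159 against 1438 ± 147, log2 0.44, adjusted p = 0.0926).

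Of the 4 other U1 and U2 protein genes, 1 was called. Snrpc, which encodes U1 C, a protein that steadies the contact of U1 with the start of the intron, was 3856, 3092 and 3959 in NC, 2670.5, 2671 and 2669.6 in Hdac1/2 cKD and 3658, 3099 and 2625 in Sin3a KD. It fell to 73.5% of NC in Hdac1/2 cKD (log2 -0.44, SE 0.13, adjusted p = 0.0342), whose 3 libraries were nearly equal. The call was lost in 5 of 9 leave-one-out fits, those without NC replicate 1 (0.0977) or 3 (0.0934) or Hdac1/2 cKD replicate 1 (0.0908), 2 (0.0917) or 3 (0.0915), as well as with libraries scaled to equal totals (0.0837) and with lane as a factor (0.0862). The table lists 2 close copies of Snrpc, Gm2991 and Gm8974. In Sin3a KD the lowest adjusted p of the 4 was that of Snrpb2, U2 B'' (950.05 ± 70.8 in NC, 739 ± 20.9 in Sin3a KD, log2 -0.36, adjusted p = 0.0812). Snrpb2 was 749 ± 19.3 in Hdac1/2 cKD (log2 -0.34, adjusted p = 0.0723), so the values of both knockdowns lay below all 3 NC libraries without passing. Of all 13343 tested genes, 2131 lay wholly below NC in Hdac1/2 cKD and 1768 in Sin3a KD.

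The 13 Prpf genes gave 2 calls in Hdac1/2 cKD against NC, in opposite directions, and both belong to proteins that act beside U1. Prpf40b, a U1-associated protein with a low level here, was 70, 42.4 and 80.9 in NC, 143.2, 165.8 and 239.6 in Hdac1/2 cKD and 93.4, 95 and 54.1 in Sin3a KD. Its Hdac1/2 cKD libraries were the highest of the 9. It rose 2.84-fold over NC by the means (182.8 ± 50.4 against 64.4 ± 19.8, SD, n = 3, log2 1.51, SE 0.34, adjusted p = 0.0101) and was higher than in Sin3a KD (log2 1.18, SE 0.34, adjusted p = 0.0311). The call against NC was lost without Hdac1/2 cKD replicate 3 (0.0569). The call against Sin3a KD was lost without Hdac1/2 cKD replicate 2 (0.0743) or 3 (0.135) and without Sin3a KD replicate 1 (0.0553) or 3 (0.123).

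Prpf39, the other U1-associated protein, was 320.7, 404.2 and 276.3 in NC, 239, 149.4 and 172 in Hdac1/2 cKD and 245.8, 151.5 and 279.6 in Sin3a KD. Hdac1/2 cKD lay below NC without overlap (log2 -0.84, SE 0.27, adjusted p = 0.0467), while Sin3a KD overlapped NC (log2 -0.59, adjusted p = 0.194). This was the called value closest to the threshold in that comparison. It was lost without NC replicate 1 (0.0898) or 2 (0.124), without Hdac1/2 cKD replicate 2 (0.164) or 3 (0.128), without Sin3a KD replicate 1 (0.0605), with libraries scaled to equal totals (0.0939) and with the replicate block (0.0536). In all, 11 of the 19 alternative settings lost it, lane as a factor and limma's options off among them.

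Prpf6, which bridges the parts of the U4/U6.U5 assembly, was 1416, 1782 and 1559.6 in Hdac1/2 cKD and 2028, 2086 and 1965 in Sin3a KD, with NC at 1689.6, 1754 and 1805. It was lower in Hdac1/2 cKD than in Sin3a KD (log2 -0.36, SE 0.11, adjusted p = 0.0352) with no overlap. That call was lost without Hdac1/2 cKD replicate 1 (0.153) or 3 (0.0973), without Sin3a KD replicate 1 (0.0997), 2 (0.0978) or 3 (0.0683), and with lane as a factor (0.2). Prpf8, the core protein of U5, did not pass (log2 0.20 in Hdac1/2 cKD, adjusted p = 0.352, and 0.16 in Sin3a KD, adjusted p = 0.5). No Prpf gene passed in Sin3a KD against NC, the lowest adjusted p being that of Prpf38a (log2 -0.44, adjusted p = 0.118).

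Outside the U6 ring, the 6 other LSm genes included Lsm14b, whose call was the only member call in Hdac1/2 cKD against NC to be kept in all 19 alternative settings. Lsm14b encodes a cytoplasmic RNA-binding protein of a family that holds messenger RNA untranslated. It was 463.4, 569.9 and 462.2 in NC, 782.4, 813.7 and 778.2 in Hdac1/2 cKD and 420.1, 522.3 and 511 in Sin3a KD. The 3 Hdac1/2 cKD libraries were the highest of the 9, and the 2 other groups overlapped. Lsm14b rose from 498.5 ± 61.8 to 791.4 ± 19.4 (SD, n = 3, log2 0.67, SE 0.15, adjusted p = 0.00812) and exceeded Sin3a KD (log2 0.71, SE 0.15, adjusted p = 0.00501). The call against Sin3a KD was lost only with lane as a factor (0.139).

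Its paralogue Lsm14a was 819.6, 1028 and 970.5 in NC, 1256, 1342 and 1117 in Hdac1/2 cKD and 746.8, 965.5 and 661.2 in Sin3a KD. All Hdac1/2 cKD libraries were above all others. It was higher in Hdac1/2 cKD than in Sin3a KD (log2 0.66, SE 0.15, adjusted p = 0.0098, lost only with lane as a factor, 0.159) and did not pass against NC (log2 0.40, adjusted p = 0.0979). None of the 6 passed in Sin3a KD against NC, the lowest adjusted p being that of Lsm12 (log2 -0.28, adjusted p = 0.0985). Lsm10 and Lsm11, which replace Sm proteins in the U7 particle of histone messenger RNA processing, were low (9.4 to 59.7 and 169.3 to 348.1) and did not pass.

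In the LSm ring of U6 none of the 7 genes passed in any comparison. The lowest adjusted p was that of Lsm4 in Hdac1/2 cKD (1056 ± 176 in NC, 775.2 ± 70.5 in Hdac1/2 cKD, log2 -0.44, adjusted p = 0.0572) and that of Lsm5 in Sin3a KD (831.4 ± 118 in NC, 633.7 ± 85.7 in Sin3a KD, log2 -0.39, adjusted p = 0.12). In the direct comparison it was Lsm5 (log2 0.41, adjusted p = 0.07). The U2AF genes, which recognise the end of the intron, had no call either, and U2af2 had their lowest adjusted p in all 3 comparisons (0.52, 0.371 and 0.0918, log2 0.12, -0.18 and 0.30).

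The 11 SR protein genes, regulators of exon choice, had no call against NC in either knockdown. Srsf2 was closest in Hdac1/2 cKD (10085 ± 662 in NC, 8480 ± 297 in Hdac1/2 cKD, log2 -0.25, adjusted p = 0.0692) and Srsf3 in Sin3a KD (7958 ± 920 in NC, 6440 ± 840 in Sin3a KD, log2 -0.31, adjusted p = 0.0982). In Sin3a KD the log2 values of all 11 were below 0, from -0.32 to -0.006 with a median of -0.23, and 0 were called by limma. Of all 13343 tested genes 6306 were below 0. The 11 genes were measured in the same libraries, so their signs are not independent. Below 0 were 7 of 11 with libraries scaled to equal totals, 10 with lane as a factor, and 9 without NC replicate 1, Sin3a KD replicate 2 or Sin3a KD replicate 3. Srsf3 and Srsf6 were called without NC replicate 2, and Srsf3 without Sin3a KD replicate 2. In the direct comparison Srsf11, an SR-related protein, was higher in Hdac1/2 cKD (2113, 1880 and 1795) than in Sin3a KD (1410, 1502 and 1619), with NC at 1706, 1702 and 1993 (log2 0.35, SE 0.11, adjusted p = 0.0468). That call was lost without Hdac1/2 cKD replicate 1 (0.181), 2 (0.104) or 3 (0.0625), without Sin3a KD replicate 1 (0.169), 2 (0.103) or 3 (0.0591), and with the replicate block (0.0556). In all, 11 of the 19 alternative settings lost the Srsf11 call, lane as a factor and limma's options off among them.

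**Figure D4:**
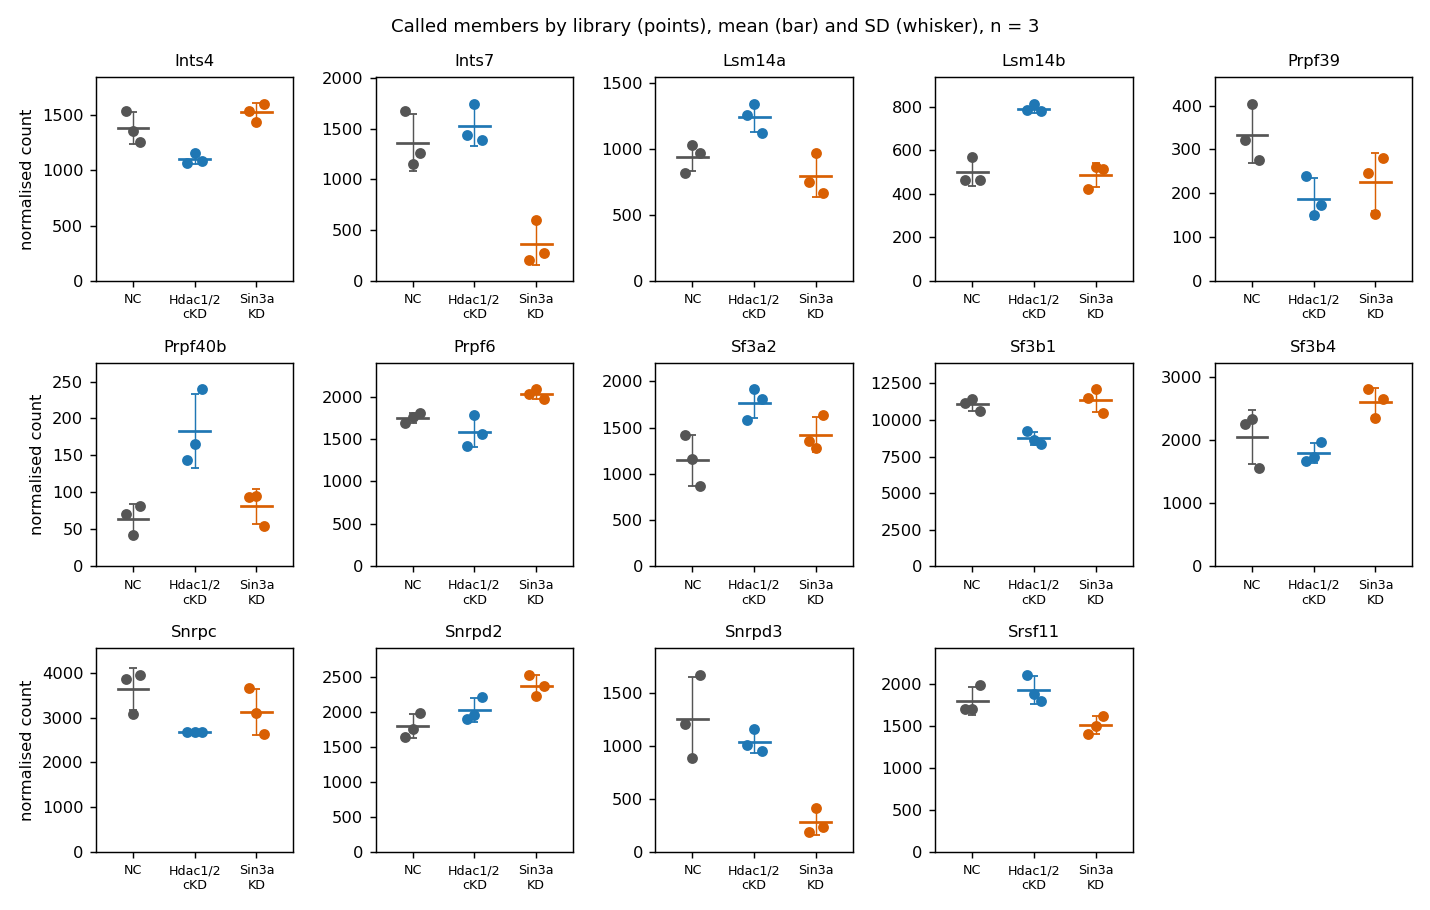
Normalised counts of the 14 genes called in at least 1 comparison, 1 panel per gene and 1 point per library, with the group mean as a bar and the SD as a whisker (n = 3). Sin3a KD libraries are lowest for Snrpd3 (188.6 to 412.2) and Ints7 (208.4 to 595.9), and Hdac1/2 cKD libraries are highest for Lsm14b (778.2 to 813.7) and Prpf40b (143.2 to 239.6).

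Lane was read from a suffix of each library's description and taken to be the sequencing lane. It differed between groups. With lane as a factor, 4 of the 6, 1 of the 3 and 4 of the 10 called genes remained called in the 3 comparisons. The NC group has replicate 3 alone in lane 3, so the values within that lane rest on it.

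A list of 99 other genes of the same pathways was measured beside the 71. It holds further snRNP proteins, step factors and helicases, SR-related proteins and their kinases, and snRNP assembly factors. It also holds partners of Integrator, with the subunits Asun and Vwa9 placed among them. In Hdac1/2 cKD against NC 12 of 99 were called (12.1%, against 15.6% of all tested genes), 2 higher and 10 lower. Those with the lowest adjusted p all fell. They were Crnkl1, a scaffold of the catalytic spliceosome (5905 ± 404 to 3446 ± 128, SD, n = 3, log2 -0.78, adjusted p = 0.000173), Pdcd7 of the minor spliceosome (log2 -0.82, adjusted p = 0.00164), the Sm assembly factors Strap (log2 -0.44, adjusted p = 0.00619) and Gemin2 (log2 -0.75, adjusted p = 0.00814), the peptidyl-prolyl isomerase Ppie (log2 -0.60, adjusted p = 0.00666) and Cdc5l of the Prp19 complex (log2 -0.44, adjusted p = 0.0143, lost without Hdac1/2 cKD replicate 3 at 0.0755). Of the 16 assembly factors 3 were called (18.8%, against 15.6% of all tested genes), all lower (background 7.8%). Of the 29 step factors and helicases 5 were called (17.2%), also all lower, so both called shares were near the background.

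In Sin3a KD 4 of the 99 were called (4.04%, background 7.96%), all lower. Gemin5, which reads the code that marks a small nuclear RNA for its Sm ring, was 63.5% of NC (6310 ± 1218 against 4006 ± 134, SD, n = 3, log2 -0.64, adjusted p = 0.0106), and the helicase Dhx8 was 71.01% of NC (log2 -0.49, adjusted p = 0.011). Both calls were lost without Sin3a KD replicate 1 (0.0529 and 0.0602). The splicing regulator Tra2b (log2 -0.44, adjusted p = 0.0289) and the step factor Syf2 (log2 -0.51, adjusted p = 0.0418) were less firm. Tra2b was lost without NC replicate 1 (0.0886) or 3 (0.0586) or Sin3a KD replicate 1 (0.0742) or 3 (0.125). Syf2 was lost in 7 of 9 leave-one-out fits, and kept without NC replicate 2 or Sin3a KD replicate 2. With lane as a factor none of these 4 calls was kept.

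In the direct comparison 20 of the 99 were called (20.2%, background 17.3%), 9 higher and 11 lower in Hdac1/2 cKD. Polr2a, the large subunit of RNA polymerase II to which Integrator binds, was 4586 ± 455 in Hdac1/2 cKD and 2635 ± 179 in Sin3a KD (SD, n = 3, log2 0.80, adjusted p = 0.000319), with NC at 3396 ± 312. The U5 GTPase Eftud2 (log2 0.58, adjusted p = 0.00153) and the helicase Ddx39b (log2 0.48, adjusted p = 0.00473, lost with lane as a factor at 0.0646) were also higher. Crnkl1 (log2 -0.63, adjusted p = 0.000568), the helicase Ddx46 (log2 -0.57, adjusted p = 0.00415, lost with lane as a factor at 0.0889) and the cap-binding protein Ncbp2 (log2 -0.42, adjusted p = 0.0158) were lower. Ncbp2 was lost without Hdac1/2 cKD replicate 1 (0.0667) or 2 (0.0615) or Sin3a KD replicate 2 (0.0674), and with lane as a factor.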

How the data were processed

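RNA from 9 libraries of pooled mouse embryos was sequenced. The submitters' processing notes name Salmon for counting, DESeq2 for normalisation and the build GRCm38, but no versions and no transcript set. The signal values the authors deposited are read counts divided by DESeq2 factors, which were taken here to include length factors. The values are not given per length. Between 55.1% and 68.1% of low values per library were within 0.1 of whole multiples of the best single step, so whole reads and depth were not recovered and a count model was not fitted. The 1 line without a name (0.00544% to 0.00896% of a library) was left out, and RFP and GFP RNA added before extraction was not used here.

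Genes reaching 10 in at least 3 of the 9 libraries were fitted as log2(value + 1), which understates changes of low genes, in limma 3.58.1 (R 4.3.3, trend and robust) with 1 mean per group and 6 residual degrees of freedom. Tests are two-sided, with Benjamini-Hochberg adjustment over 13343 genes. The labels do not say that replicates came from separate collections, so p-values measure the spread between these libraries only, which may be technical. Alternatives covered pseudocount, filter, scaling, moderation, lane, libraries fitted, a replicate block and each library left out. The members and lists were chosen with earlier results of these data known. Named genes are the targets, every called member, the lowest adjusted p of each role without a call, the highest and lowest levels and up to 6 called pathway genes per comparison, and a few others were named after their values were seen. Exon lengths and overlaps come from GENCODE vM21, and the fit was tested on simulated data.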

Additional observations from a re-analysis of the deposited data

How the results depend on the processing

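Each comparison was recomputed under 19 alternative settings, and no called gene named in the report reversed its direction. With libraries scaled to equal totals 16, 20 and 3 of the 71 members changed sign in the 3 comparisons, none of them among the reported calls, with reported log2 changes of at most 0.10, 0.09 and 0.01 in size, and the median of all genes moved by 0.11, 0.09 and 0.02 on the log2 scale in the 3 comparisons. Members called in Hdac1/2 cKD against NC were then 7 higher and 0 lower, of which 3 were among the 6 reported, and in Sin3a KD 3 were higher. With neither trend nor robust moderation, 0 members were lower in Hdac1/2 cKD, 0 higher and 0 lower in Sin3a KD against NC, and 1 lower in the direct comparison, with 5, 0 and 6 pathway genes. That setting called 17 genes higher and 19 lower of all tested in Sin3a KD against NC, where the reported fit called 480 and 582. With lane as a factor, 1 member was lower in Hdac1/2 cKD, 0 higher and 1 lower in Sin3a KD, 3 higher and 1 lower in the direct comparison, with 0 and 5 pathway genes in the last 2. Without the 2 libraries alone on their lanes the counts were 0 lower, 0 higher and 1 lower, and 2 lower, with 0 and 7 pathway genes, and the lane fit compares the same libraries. With only the 6 libraries compared, 0 members were higher in Sin3a KD with 2 pathway genes, and 12 were higher in the direct comparison. With no filter beyond a value above 0, 0 members were higher in Sin3a KD, and Prpf39, Prpf6 and Srsf11 were also lost. With neither trend nor robust moderation, Lsm14b and Prpf40b were kept in Hdac1/2 cKD against NC. In the direct comparison Ints4, Ints7, Lsm14a, Lsm14b and Snrpd3 were then kept. Without the 2 libraries alone on their lanes, the first comparison kept Lsm14b, Prpf40b and Sf3a2, and the second Snrpd3. The direct one then kept Ints4, Ints7, Lsm14a, Lsm14b, Sf3b1 and Snrpd3.

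Leaving out 1 library gave 1 to 4 members higher and 0 to 4 lower in Hdac1/2 cKD with 6 to 18 pathway genes, 0 to 2 higher and 2 to 5 lower in Sin3a KD with 0 to 12, and 4 to 7 higher and 1 to 6 lower in the direct comparison with 7 to 24. The lowest count in Hdac1/2 cKD, 1 member in all, came without its replicate 3. Same-numbered replicates correlated between -0.0193 and 0.0581, so the numbers do not pair the libraries. With the replicate block, 5, 3 and 10 members were called in the 3 comparisons, of which 5, 3 and 9 were among those reported, and Sf3b5 was added. Beyond fewer genes or libraries, the cause of these differences was not tested. Depth is unknown, so what low genes such as Srsf12 and Lsm10 allow cannot be bounded.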

Other observations

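Of the genes without a call, Srsf12, an SR protein gene with low values, was 10.2, 15.9 and 25.6 in Hdac1/2 cKD, against 6.9, 3.4 and 1.2 in NC and 3.5, 3.7 and 0.9 in Sin3a KD. It was tested only because its Hdac1/2 cKD values passed the filter of 10. Summed over the 4 other U1 and U2 protein genes, values ranged from 6257 to 6855 in Hdac1/2 cKD, from 6577 to 7955 in Sin3a KD and from 7548 to 8569 in NC. These genes were singled out after their values were seen.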
